A study of Mus musculus with 20 samples.

Results

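The genes described here are 9 mouse keratins, the stress and nail bed keratins Krt6a, Krt6b, Krt16, Krt17 and Krt75 and the simple epithelial keratins Krt8, Krt18, Krt19 and Krt20. They were chosen by symbol from the 2 deposited count tables, with the rows of a symbol summed, and all 9 were found once in each table among 23988 joined genes. A filter of at least 1 CPM, a count scaled to the library's total, in at least 4 libraries kept 14872 genes, and 8 of the 9 members passed it. Krt20 did not. The 8 that passed had at least 1.87 CPM in every library, so none passed through 1 group alone.

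Messenger RNA was sequenced from phalanges, the skeletal segments of the digits with the tissue around them, of mouse embryos at E17 and at E16. At each stage, 5 segments were taken from the hindlimb and the same 5 from the forelimb, namely the distal phalanges of digit 1 and digit 2, the middle phalanx of digit 2, and the proximal phalanges of digit 1 and digit 2. Each of the 20 libraries is a pool, of 10 embryos at E17 and of 20 embryos at E16. The embryos carried no treatment or altered allele in the labels, and no strain is named there.

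Total counts per library were 75278309 to 111204552 at E17 and 70871735 to 77361898 at E16. There was 1 library for each combination of stage, limb and segment, so the p-values measure how alike matched libraries behaved, and no litter was replicated. The labels do not say whether libraries of a stage come from the same embryos, so matched libraries may not be independent. Stage cannot be told apart from pool size, the embryos used or the count table. The library kit is not described as keeping strand, so reads of antisense transcripts could not be separated. In tissue pools, fewer cells of a type and less RNA per cell cannot be told apart.

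Keratins form the intermediate filaments of epithelial cells, and each filament is built of a type I and a type II chain in equal amounts. Krt6a, Krt6b, Krt75 and Krt8 are type II chains, while Krt16, Krt17, Krt18, Krt19 and Krt20 are type I chains. Krt6 isoforms, Krt16 and Krt17 are induced in wounded epidermis and are present without injury in the nail bed, hair follicle and footpad. Krt75 is known from the companion layer of the follicle and from the nail bed. Krt8 and Krt18 form the filaments of simple epithelia and of embryonic surface epithelium, Krt19 accompanies them and also marks progenitor cells of the follicle, and Krt20 is used as a marker of Merkel cells, the touch receptor cells of skin.

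Krt6a and Krt6b are near copies, which bears on every value of either gene. Their coding sequences, both on chromosome 15, have 97.8% identical bases over 1659 aligned bases, with a longest identical run of 280 bases (GENCODE vM21 transcripts, build GRCm38). Of all 100-base windows of the Krt6a transcript, 29.5% occur letter for letter in Krt6b, and 30.1% of those of Krt6b occur in Krt6a. No other pair of members shares such a window. The 90-base coding stretch in which they differ most, bases 787 to 876 of each, is shown with the 12 differing bases in capitals, since only reads that cross such bases separate the pair.
Krt6a: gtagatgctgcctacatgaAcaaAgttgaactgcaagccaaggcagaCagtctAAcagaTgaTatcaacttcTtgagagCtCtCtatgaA
Krt6b: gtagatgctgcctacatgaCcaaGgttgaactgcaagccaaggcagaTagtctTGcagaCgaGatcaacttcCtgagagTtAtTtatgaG
How the authors' counting split reads of the shared windows is not given in the sources used here, so single values of Krt6a and Krt6b are uncertain.

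The members took 0.339% to 0.706% of the counts in distal libraries and 0.0949% to 0.255% in middle and proximal libraries. Per kilobase of transcript, Krt6a had the highest mean level in the distal libraries, at 1241 ± 388 CPM per kilobase (SD, n = 8), and in the middle and proximal libraries, at 419 ± 109 CPM per kilobase (SD, n = 12). In distal libraries Krt17 (531 ± 161), Krt16 (438 ± 182) and Krt6b (341 ± 152 CPM per kilobase) came next and did not separate beyond their spread. Krt19 followed at 176 ± 40.5, Krt8 at 27.0 ± 12.2, Krt18 at 9.57 ± 3.13 and Krt75 at 9.20 ± 3.73 CPM per kilobase. In middle and proximal libraries Krt19 took the second place at 155 ± 29.4 CPM per kilobase and Krt16 ranked below Krt8, with 15.6 ± 10.6 for Krt16 against 29.7 ± 6.84 CPM per kilobase for Krt8. Krt6a thus led in both sets of segments, and among the simple keratins Krt19 was the most abundant.

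The names of the members were set against marker genes. Hard keratins of the nail matrix and their regulators Hoxc13 and Foxn1 summed to 811 to 14898 CPM in distal libraries and to 19.5 to 185 CPM in middle and proximal libraries, so most transcripts of nail matrix lay in the distal segments. Of 11 markers of the follicle companion layer and inner root sheath, 3 passed the filter. They were Gata3 (median 47.3 CPM), Tchh (34.6 CPM) and Krt79 (1.30 CPM). The 6 inner root sheath keratins in the joined table, Krt71, Krt72, Krt73, Krt74, Krt27 and Krt28, all stayed below it and were at 0 in 10, 1, 11, 3, 13 and 10 of 20 libraries, while Krt25 and Krt26 were not joined. Of 12 Merkel cell markers, 9 passed, while Isl1, Pou4f3 and Chga did not, and the lineage factor Atoh1 was at 0 in 6 libraries. Of 13 genes of activated keratinocytes, Lcn2, Il1b and Ccl20 stayed below the filter, and Ccl20 was at 0 in 17 libraries. The 10 that passed had median levels from 0.433 CPM (Il1a) to 250 CPM (Sprr1a).

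The largest differences of the stress and nail bed keratins were between distal and proximal phalanges. All 5 were higher in distal phalanges, in 8 of 8 matched pairs each, and Krt16 differed most. Among all tested genes 23.3% were called higher in distal phalanges and 23.4% lower, at an adjusted p under 0.05, against 5 higher and 0 lower of the 8 tested members.

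Krt16, the type I partner of Krt6, had a lowest, median and highest level of 211, 719 and 1004 CPM in distal phalanges, against 6.89, 15.3 and 41.9 CPM in proximal phalanges. Even the lowest distal library, digit 1 of the E16 forelimb, lay far above the highest proximal one. The log2 fold change was 5.32 ± 0.22 (SE, adjusted p = 1.36e-11). Krt6b had 266, 825 and 1193 CPM in distal phalanges, against 53.2, 91.8 and 149 CPM in proximal phalanges, a log2 fold change of 2.91 ± 0.16 (adjusted p = 3.32e-10). Krt6a had 1821, 2760.2 and 4045 CPM in distal phalanges, against 577, 914 and 1144 CPM in proximal phalanges, a log2 fold change of 1.63 ± 0.11 (adjusted p = 1.37e-09). For these genes the distal libraries also lay above every middle library, without overlap. Counted as 1 gene, the Krt6 copies were higher distally by a log2 fold change of 1.82. For the sum, this direction does not rest on how their reads were split. Most of the sum was counted as Krt6a, so it cannot settle the direction of Krt6b alone.

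Krt17, which pairs with Krt6 and is expressed from early appendage buds on, had 439, 842 and 1213 CPM in distal phalanges, against 90.0, 133 and 246 CPM in proximal phalanges. Its log2 fold change was 2.48 ± 0.15 (adjusted p = 5.87e-10). Its middle phalanx of the E16 hindlimb, at 471 CPM, reached into the distal range, and the other 3 middle libraries lay below it. Krt75 was far less abundant, with 15.8, 28.1 and 50.4 CPM in distal phalanges, against 1.87, 6.40 and 17.7 CPM in proximal phalanges. Here the groups overlapped, since the E16 hindlimb proximal library of digit 2 exceeded both hindlimb digit 1 distal libraries. The log2 fold change of Krt75 was 2.14 ± 0.45 (adjusted p = 0.000763), with the widest SE of the 5 genes.

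**Figure D1:**
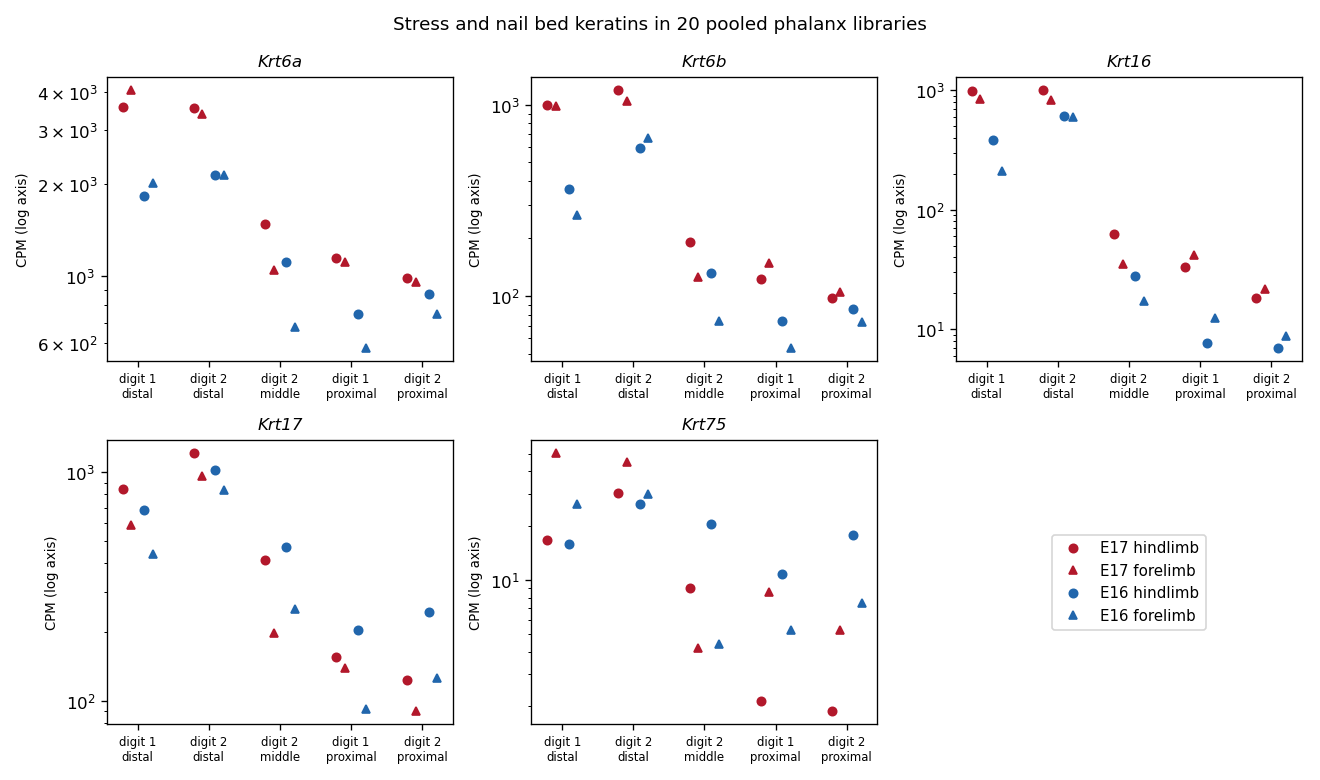
Level of each stress and nail bed keratin in CPM (log axis) in the 20 libraries, by segment, with E17 in red left of E16 in blue, hindlimb as circles and forelimb as triangles. Each point is 1 pooled library. The 8 distal libraries lie above all 12 others for Krt6a, Krt6b and Krt16, and overlap them for Krt17 and Krt75.

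Other epithelial transcripts were also more abundant distally. All 12 general epithelial genes, among them Cdh1, Epcam and Grhl2, were called higher in distal than in proximal phalanges, with a median log2 fold change of 0.68 beside 0.01 for all tested genes, and their summed level was 1852 to 2556 CPM in distal libraries and 1068 to 1914 CPM in middle and proximal libraries. Relative to that sum, all 5 stress and nail bed keratins were still higher in 8 of 8 distal against proximal pairs. The mean log2 difference of the ratio was 4.73 ± 0.93 for Krt16 (SD over 8 pairs), 2.32 ± 0.55 for Krt6b, 1.91 ± 0.61 for Krt17, 1.66 ± 1.22 for Krt75 and 1.04 ± 0.26 for Krt6a. The nail matrix list, hard keratins with Hoxc13 and Foxn1, moved the same way, with 13 of 13 higher and a median log2 fold change of 6.63. Some of its genes passed the filter only through a minority of libraries, as with Krt81 and Krt83, at 0 in 13 and 10 libraries. For such genes the direction is partly set by the filter, so the count of 13 is not independent of it. The part of nail tissue in the keratin differences was not tested. Lists of other cell types moved between these segments too. Red cell genes were higher distally (5 of 5, median log2 fold change 1.19), as were the bone genes Sp7 (3.37 ± 0.20) and Ibsp (2.15 ± 0.24), 2 of 3 tested. Endothelial (5 of 5, median -0.85) and macrophage genes (5 of 5, median -0.80) were lower distally, and Schwann cell genes were split, with 2 of 5 higher and 3 lower. The part of these cell types was not tested.

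The middle phalanx of digit 2 allowed a finer step along the digit. Against the middle phalanx, the distal phalanx had all 5 stress and nail bed keratins higher and Krt8 and Krt18 lower, where 16.3% of all tested genes were called higher and 16.8% lower. Krt16 had 830.4, 1004, 607 and 601 CPM in the distal phalanges of digit 2 (E17 forelimb, E17 hindlimb, E16 hindlimb, E16 forelimb), against 35.0, 62.4, 27.9 and 17.1 CPM in the middle phalanges of the same limbs, with no overlap. The log2 fold change was 4.55 ± 0.30 (adjusted p = 1.30e-08). It was 2.74 ± 0.23 for Krt6b, 1.67 ± 0.20 for Krt17 and 1.37 ± 0.15 for Krt6a (highest adjusted p = 6.85e-06). Krt75 was at 1.88 ± 0.63 (adjusted p = 0.0279), a call that was lost in E16 libraries alone (1.43, adjusted p = 0.122) and when any of 5 single libraries was left out (adjusted p 0.0525 to 0.0997). These were the distal libraries of the E17 hindlimb and forelimb and the middle libraries of the E17 hindlimb, E17 forelimb and E16 forelimb.

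Krt16 and Krt17 were also higher in the middle than in the proximal phalanx of digit 2, where only 1.85% of tested genes were called higher and 1.93% lower. Krt17 had 199, 415, 471 and 253 CPM in the middle phalanges (E17 forelimb, E17 hindlimb, E16 hindlimb, E16 forelimb), against 90.0, 124, 246 and 126 CPM in the proximal phalanges of the same limbs. Each of the 4 pairs was higher in the middle phalanx, although the ranges overlapped. The log2 fold change was 1.17 ± 0.20 (adjusted p = 0.00243). Krt16 had 35.0, 62.4, 27.9 and 17.1 CPM in the middle phalanges, against 21.5, 18.1, 6.89 and 8.79 CPM in the proximal phalanges, also higher in 4 of 4 pairs and with overlapping ranges, with a log2 fold change of 1.39 ± 0.27 (adjusted p = 0.00585). Within a single stage Krt16 was not called (adjusted p = 0.0978 at E17 and 0.0971 at E16), and Krt17 was called at E17 (adjusted p = 0.0253) and not at E16 (adjusted p = 0.0591). Of the nail matrix genes 3 of 13 were also higher in the middle phalanx, namely the hard keratins Krt84 (5.61 ± 0.82) and Krt36 (4.78 ± 0.64) and the regulator Hoxc13 (1.37 ± 0.26). Their list summed to 78.1 to 185 CPM in the middle phalanges, against 19.5 to 32.8 CPM in the proximal phalanges of digit 2, and its part in the keratin differences was not tested.

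**Figure D2:**
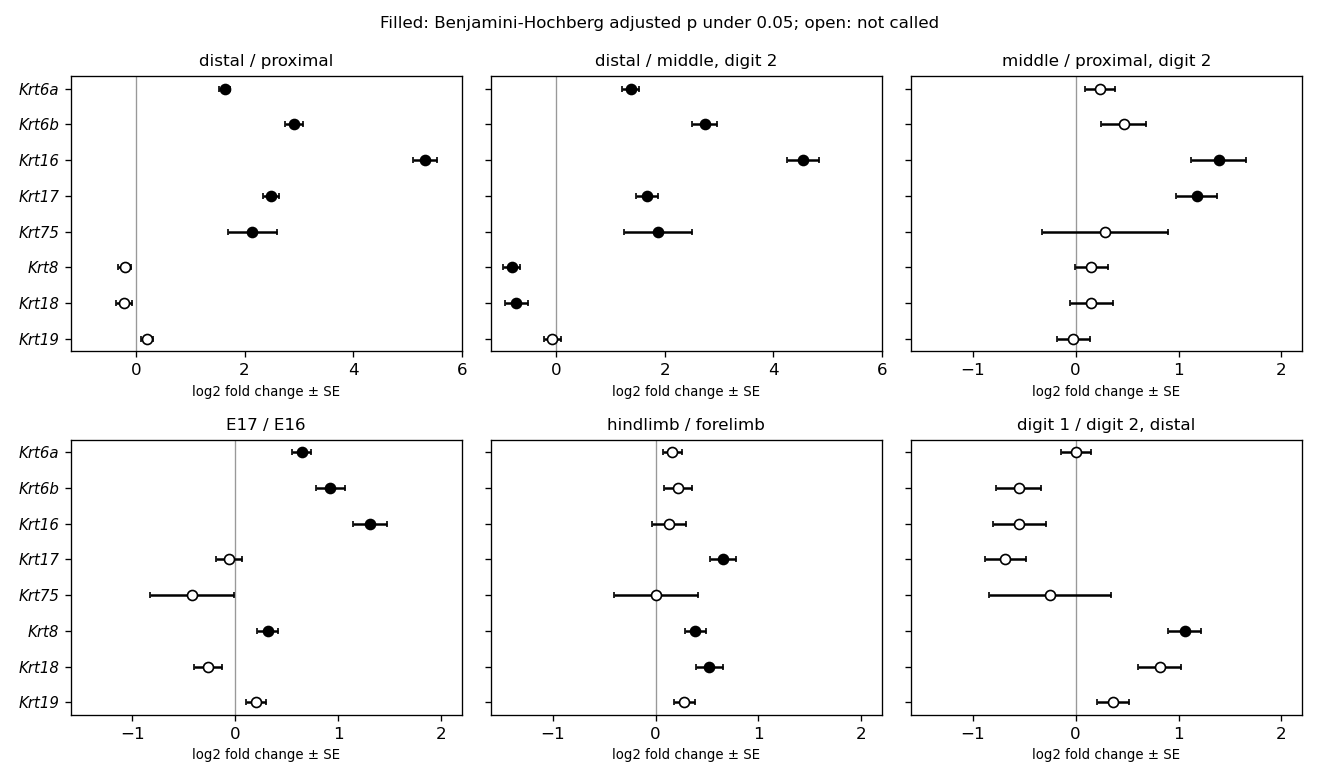
Log2 fold change with its standard error for the 8 tested members in 6 comparisons, the group named first being the numerator. Filled points have an adjusted p under 0.05 over all tested genes. Distal against proximal reaches 5.32 for Krt16, while Krt8, Krt18 and Krt19 lie near 0, and the upper left pair of panels has a wider axis than the others.

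The simple epithelial keratins followed another order of segments. Krt8 and Krt18 had their lowest mean in the distal phalanx of digit 2 and their highest in the distal phalanx of digit 1. The highest place overlapped that of the middle phalanx for both genes. For Krt18 the means were 17.5 ± 2.8 and 17.3 ± 5.8 CPM (SD, n = 4 each). Krt8, a type II chain, had 85.8, 85.4, 66.1 and 48.3 CPM in the distal phalanges of digit 1 (E17 forelimb, E17 hindlimb, E16 hindlimb, E16 forelimb), against 41.6, 37.7, 36.6 and 21.2 CPM in those of digit 2. The digits did not overlap, and the log2 fold change was 1.06 ± 0.16 (adjusted p = 0.00418), where 0.686% of all tested genes were called higher in digit 1 and 0.807% lower. Krt8 was the only member called, and it was not called in E17 libraries alone (1.11, adjusted p = 0.186). Krt18, its type I partner, had 18.4, 17.3, 20.5 and 13.8 CPM in the distal phalanges of digit 1 (same order of limbs), against 9.36, 9.63, 11.8 and 9.16 CPM in those of digit 2. These did not overlap either, but the log2 fold change of 0.82 ± 0.21 had an adjusted p of 0.0599. DESeq2 called Krt18 (adjusted p = 0.00647), as did the fit with a term for each stage and limb set (adjusted p = 0.0390).

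No stress or nail bed keratin was called between the distal phalanges. The log2 fold change of digit 1 against digit 2 was -0.69 ± 0.20 for Krt17 (adjusted p = 0.103, lower in 4 of 4 pairs), -0.55 ± 0.22 for Krt6b (0.303, lower in 4 of 4), -0.55 ± 0.26 for Krt16 (0.440, lower in 3 of 4) and 0.0045 for Krt6a (higher in 2 of 4). In E17 libraries alone Krt16 was at 0.013. Of the nail matrix genes, 4 of 13 were called lower in digit 1, among them Foxn1 at -0.91 ± 0.16 (adjusted p = 0.00819). Their summed level was 811 to 7227 CPM in digit 1, against 8384 to 14898 CPM in digit 2. The library with the lowest sum, digit 1 of the E16 forelimb, was also the lowest distal library for Krt16, Krt6b and Krt17.

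The digits were therefore also taken apart for distal against proximal. In digit 1, where 12.8% of tested genes were called higher in the distal phalanx and 14.1% lower, Krt8 was at a log2 fold change of 0.25 ± 0.16 and Krt18 at 0.14 ± 0.21, neither called, and Krt19 was higher at 0.50 ± 0.16 (adjusted p = 0.0250). In digit 2, where 19.7% were called higher and 19.6% lower, Krt8 was lower at -0.67 ± 0.16 (adjusted p = 0.00320), Krt18 was lower at -0.58 ± 0.21 (adjusted p = 0.0347), and Krt19 was at -0.09 ± 0.16, not called. The 5 stress and nail bed keratins were higher distally in both digits. Over both digits together Krt8 (-0.21), Krt18 (-0.22) and Krt19 (0.21) were not called. In E17 libraries alone Krt19 was higher distally (0.42, adjusted p = 0.00627), and in E16 libraries alone Krt8 (-0.42, adjusted p = 0.00575) and Krt18 (-0.45, adjusted p = 0.0408) were lower. Against the middle phalanx of digit 2, the distal phalanx was lower in Krt8 (-0.82 ± 0.16, adjusted p = 0.000760) and in Krt18 (-0.73 ± 0.21, adjusted p = 0.0112), with no overlap for either gene. The Krt8 call against the middle phalanx was lost in E17 libraries alone (-0.66, adjusted p = 0.0527).

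The difference between the digits was itself tested, as the excess of the distal over the proximal difference of digit 1 above that of digit 2. No member was called, where 0.195% of tested genes were called in each direction. Unadjusted, 5 of 8 members had a p under 0.05. The share of all tested genes at that unadjusted threshold is not given here, so this count cannot be read as an excess. Krt8 was at 0.92 ± 0.23 (adjusted p = 0.0919), Krt16 at -1.23 ± 0.37 (adjusted p = 0.159), Krt19 at 0.60 ± 0.22 (0.301), Krt17 at -0.72 ± 0.28 (0.321) and Krt18 at 0.72 ± 0.29 (0.355). DESeq2 called Krt8 alone (0.92, adjusted p = 0.00729).

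**Figure D3:**
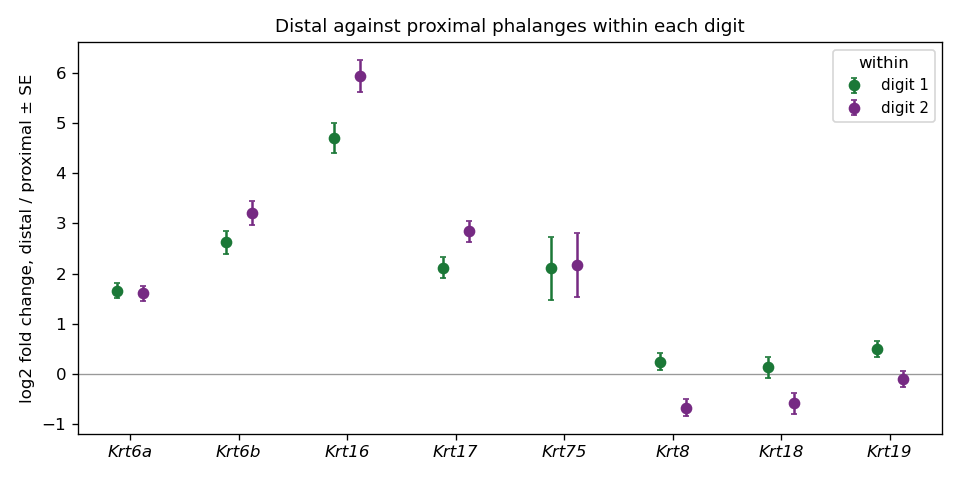
Log2 fold change of distal against proximal phalanges with its standard error, within digit 1 (green, left) and within digit 2 (purple, right), for the 8 tested members. Krt8 and Krt18 lie above 0 in digit 1, at 0.25 and 0.14, and below 0 in digit 2, at -0.67 and -0.58.

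**Figure D4:**
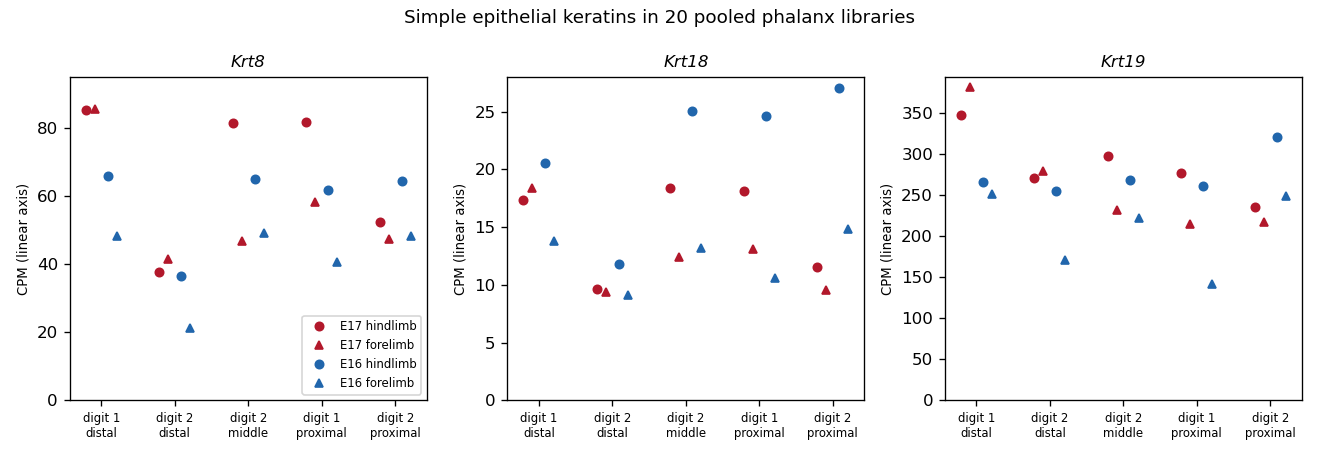
Level of Krt8, Krt18 and Krt19 in CPM (linear axes starting at 0) in the 20 libraries, by segment, with E17 in red left of E16 in blue, hindlimb as circles and forelimb as triangles. For Krt8 and Krt18 all 4 distal libraries of digit 2 lie below all 4 of digit 1.

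Because epithelial genes were more abundant distally, Krt8 and Krt18 were set against the summed general epithelial genes as well. Relative to that sum, both were lower in 8 of 8 distal against proximal pairs, by a mean log2 difference of -0.80 ± 0.61 for Krt8 and -0.80 ± 0.52 for Krt18 (SD over 8 pairs). The ratio of Krt19 was lower in 6 of 8 pairs, with a mean difference of -0.38 ± 0.48. Krt19 had 171, 269 and 382 CPM (lowest, median and highest) in distal phalanges, against 142, 243 and 321 CPM in proximal phalanges, and these groups overlapped widely.

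Krt8 and Krt18 are partner chains with genes on chromosome 15 and moved alike between segments, so their promoters are shown. RefSeq promoter windows, from 250 bases before to 50 bases after the start site, were found for 4 of the 9 members, Krt8, Krt18, Krt20 and Krt75. Both strands were searched for the TATA box motif TATAAA, the GC box motif GGGCGG, the AP-1 site motif TGANTCA and the CCAAT box motif of those letters. Capitals mark matches. The Krt8 window is chr15:102004293-102004592 on the minus strand and the Krt18 window is chr15:102027966-102028265 on the plus strand, both of build GRCm38.p6.
Krt8: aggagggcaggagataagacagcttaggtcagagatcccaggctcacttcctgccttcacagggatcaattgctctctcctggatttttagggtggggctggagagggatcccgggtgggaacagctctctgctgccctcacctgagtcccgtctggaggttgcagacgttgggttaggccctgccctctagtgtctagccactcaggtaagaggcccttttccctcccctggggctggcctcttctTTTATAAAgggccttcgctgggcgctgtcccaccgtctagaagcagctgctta
Krt18: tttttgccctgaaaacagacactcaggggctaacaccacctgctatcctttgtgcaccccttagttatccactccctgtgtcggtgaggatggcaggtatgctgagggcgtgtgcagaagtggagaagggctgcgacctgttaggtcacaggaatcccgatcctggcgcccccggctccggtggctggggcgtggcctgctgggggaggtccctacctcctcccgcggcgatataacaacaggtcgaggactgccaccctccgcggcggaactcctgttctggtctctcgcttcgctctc
The Krt8 window held 2 overlapping matches to TATAAA, 1 on each strand, which begin at -3 and -1 from the annotated start and thus lie at the start itself, not upstream where a TATA box acts. The motif was found in 13.6% of 32851 mouse promoter windows. The Krt8 window held none of the others, and the Krt18 window held none of the 4. The other motifs occurred in 35.7% (GC box), 7.81% (AP-1 site) and 37.4% (CCAAT box) of all windows.

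Between the stages, Krt6a, Krt6b, Krt16 and Krt8 rose at E17 and no member fell, where 32.2% of all tested genes were higher and 33.6% lower. A share of 4 in 8 higher is to be read beside that background. Krt16 had a lowest, median and highest level of 18.1, 52.2 and 1004 CPM at E17, against 6.89, 22.5 and 607 CPM at E16. The ranges overlap because they span all segments, but each of the 10 matched pairs was higher at E17, with a log2 fold change of 1.31 ± 0.17 (adjusted p = 2.48e-06). Krt6b had 98.2, 170.5 and 1193 CPM at E17, against 53.2, 109 and 669 CPM at E16, higher in 10 of 10 pairs (0.92 ± 0.14, adjusted p = 1.57e-05). Krt6a had 956, 1311 and 4045 CPM at E17, against 577, 990.0 and 2135 CPM at E16, higher in 10 of 10 pairs (0.65 ± 0.09, adjusted p = 8.43e-06).

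Krt8 had 37.7, 55.3 and 85.8 CPM at E17, against 21.2, 48.8 and 66.1 CPM at E16, and was higher in 7 of 10 pairs (0.31 ± 0.10, adjusted p = 0.0123). Its partner Krt18 was not called and had the opposite sign, with 9.36, 12.8 and 18.4 CPM at E17, against 9.16, 14.3 and 27.1 CPM at E16 (-0.27 ± 0.13, adjusted p = 0.0864, higher in 3 of 10 pairs). The count of Krt8 per kilobase over that of Krt18 was 2.77 to 3.64 at E17 (median 3.29), against 1.69 to 2.82 at E16 (median 2.32). These ranges overlapped only at their ends. A row named for the pseudogene Krt8-ps, with 5 to 59 counts per library, stood in the E17 table and was joined to no E16 row, and how reads of Krt8 and its pseudogenes were counted was not tested. Krt17 (-0.06 ± 0.13), Krt75 (-0.42 ± 0.41) and Krt19 (0.20 ± 0.10, adjusted p = 0.0879) were not called between stages, although DESeq2 called Krt19 higher (adjusted p = 0.0456).

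Epidermal differentiation genes moved with stage as well. Of 13 genes of basal and suprabasal epidermis, 12 were higher at E17, with a median log2 fold change of 1.36 beside -0.01 for all tested genes, and their summed level was 37740.0 to 66417 CPM at E17, against 11608 to 24363 CPM at E16. Relative to the general epithelial genes, the stage difference was a mean log2 of 1.02 ± 0.44 for Krt16 and 0.62 ± 0.49 for Krt6b (SD over 10 pairs, higher in 10 of 10 for each), 0.34 ± 0.26 for Krt6a (9 of 10) and 0.00073 ± 0.39 for Krt8 (3 of 10). The ratio of Krt18 was lower in 9 of 10 pairs (-0.57 ± 0.44). Other tissues shifted with stage as well. All 5 cartilage genes were lower at E17 (median -1.76), all 5 skeletal muscle genes were higher (median 2.22), and 4 of 5 red cell genes were higher (median 0.77). The part of epidermal differentiation and of these tissues in the stage differences was not tested.

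The stage difference in distal phalanges was not called different from that in the other segments for any member, where 0.188% of tested genes were called higher and 0.108% lower. Unadjusted, 4 of 8 members had a p under 0.05, all with a positive sign. These were Krt75 (1.67 ± 0.69), Krt17 (0.59 ± 0.22), Krt19 (0.42 ± 0.18) and Krt8 (0.42 ± 0.19), with adjusted p from 0.431 to 0.567. Without the share of all tested genes at that unadjusted threshold, which is not given here, the count cannot be read as an excess. DESeq2 called none either.

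Between the limbs, Krt17, Krt8 and Krt18 were higher in the hindlimb and no member was lower, where 9.91% of tested genes were called higher and 11.2% lower. Krt17 had a lowest, median and highest level of 124, 443 and 1213 CPM in the hindlimb, against 90.0, 226 and 959.6 CPM in the forelimb. All 10 matched pairs were higher in the hindlimb, with a log2 fold change of 0.65 ± 0.13 (adjusted p = 0.00214). Krt18 had 9.63, 18.2 and 27.1 CPM in the hindlimb, against 9.16, 12.8 and 18.4 CPM in the forelimb, higher in 9 of 10 pairs (0.52 ± 0.13, adjusted p = 0.0113). Krt8 had 36.6, 64.8 and 85.4 CPM in the hindlimb, against 21.2, 47.9 and 85.8 CPM in the forelimb, higher in 8 of 10 pairs (0.39 ± 0.10, adjusted p = 0.0143). Of other tissues, 3 of 5 cartilage genes were higher in the hindlimb and 2 of 5 Schwann cell and 2 of 5 endothelial genes were lower, and their part in the limb differences was not tested.

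The limb difference was larger at E16 than at E17 for these genes, but that contrast was not tested. In E17 libraries alone the values were 0.51 for Krt17, 0.26 for Krt8 and 0.25 for Krt18 (adjusted p = 0.0669, 0.321 and 0.287), so that all 3 calls were lost. In E16 libraries alone they were 0.78, 0.52 and 0.78 (adjusted p = 0.0130, 0.0133 and 0.0171). Krt19 was at 0.28 ± 0.10 (adjusted p = 0.0560), not called. It was called by DESeq2 (0.0232), in the fit with a term for each stage and segment set (0.0308) and in E16 libraries alone (0.0403). Krt6a, Krt6b and Krt16 were at 0.16, 0.22 and 0.13, not called. Krt75 was at 0.0046 ± 0.41, with -0.93 in E17 libraries and 0.69 in E16 libraries.

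Relative to the general epithelial genes the limb difference had a mean log2 of 0.63 ± 0.36 for Krt17 (9 of 10 pairs), 0.50 ± 0.33 for Krt18 (10 of 10) and 0.38 ± 0.32 for Krt8 (9 of 10). The limb difference in distal phalanges was not called different from that elsewhere for any member, where 0.0471% of tested genes were called higher and 0.108% lower. Krt6a (-0.38 ± 0.17) and Krt18 (-0.53 ± 0.24) had an unadjusted p under 0.05, with adjusted p of 0.302 and 0.326. The share of all tested genes at that unadjusted threshold is not given here either. DESeq2 called none.

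The balance between the Krt6 copies and their partner differed along the digit. Per kilobase, Krt6a was 2.91 to 7.41 times Krt6b in distal libraries (median 3.52), against 7.31 to 10.7 times in middle and proximal libraries (median 9.11). The highest distal ratio, 7.41, was in digit 1 of the E16 forelimb, and the other 7 distal libraries lay below every middle and proximal library. Krt6b was 0.66 to 0.88 times Krt16 in distal libraries, against 2.15 to 8.69 times in middle and proximal libraries, with no overlap. Since the 2 Krt6 copies share windows, their ratio is uncertain in size. These ratios are descriptions and were not tested.

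**Figure D5:**
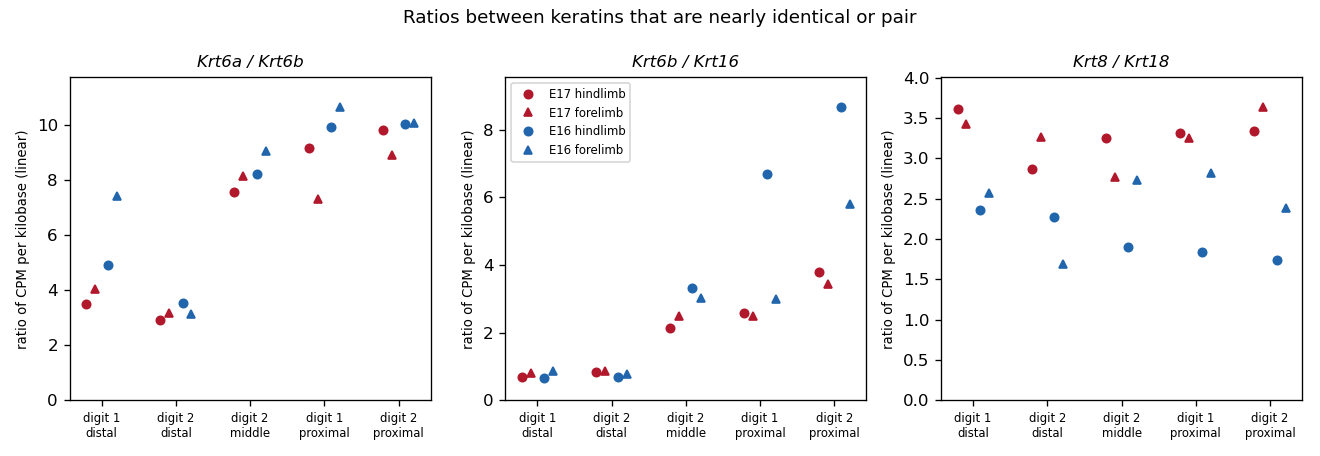
Ratio of CPM per kilobase (linear axes starting at 0) of Krt6a over Krt6b, Krt6b over Krt16 and Krt8 over Krt18 in the 20 libraries, by segment, with E17 in red left of E16 in blue, hindlimb as circles and forelimb as triangles. Krt6b over Krt16 is under 1 in all 8 distal libraries and over 2 in the 12 others, and Krt8 over Krt18 is 2.77 to 3.64 at E17 and 1.69 to 2.82 at E16.

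Krt20 was close to absent. It had no count in 8 of 20 libraries, and its highest levels were 0.405 CPM (31 counts) in the E17 forelimb middle phalanx and 0.400 CPM (34 counts) in the E17 hindlimb proximal phalanx of digit 2. A count of 0 allows up to 3 counts, which is 0.0272 to 0.0426 CPM at these depths and covers counting error only. Among distal libraries of digit 2 it was at 0 in 3 of 4. The Merkel cell genes that passed the filter did not move together. Among all tested genes, 32.2% were called higher and 33.6% lower at E17, 23.3% and 23.4% distally, and 9.91% and 11.2% in the hindlimb. Of the 9 Merkel cell genes, 4 were higher at E17 and 2 lower, and distally against proximally 2 were higher and 3 lower. Their summed level, in large part Piezo2 (median 71.4 CPM), a mechanically gated channel that is not limited to Merkel cells, was 69.6 to 143 CPM in distal libraries and 85.4 to 238 CPM in middle and proximal libraries. Between limbs none was higher in the hindlimb and 3 were lower, among them Atoh1 (-4.33 ± 0.64, adjusted p = 0.000340) and Sox2 (-1.64 ± 0.26, adjusted p = 0.000571). Both were near the floor, with medians of 0.124 CPM for Atoh1 and 0.672 CPM for Sox2. Atoh1 was at 0 in 6 libraries and passed the filter only through a minority of libraries. Krt8 and Krt18 were called higher in the hindlimb, and the part of Merkel cells in their levels was not tested.

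Known regulators of the stress keratins were looked up as a list of 14, of which 13 passed the filter. Counts of called genes in this list and those that follow are to be read beside the shares of all tested genes. These were 32.2% higher and 33.6% lower at E17, 23.3% and 23.4% in distal against proximal phalanges, and 9.91% and 11.2% in the hindlimb. For distal against middle in digit 2 they were 16.3% and 16.8%. At E17 8 were higher and 3 lower than at E16, with the AP-1 subunit Junb at 1.34 ± 0.13 (adjusted p = 8.02e-08), Klf4, a factor of the epidermal barrier, at 0.62 ± 0.07, and Gli1, a target and effector of Hedgehog signalling, at -0.77 ± 0.12. Between distal and proximal phalanges 6 were higher and 3 lower, with Junb at 1.00 ± 0.14, Grhl3, which drives barrier formation, at 0.52 ± 0.08, and Gli2 at -0.44 ± 0.07. In the hindlimb 1 was higher, Gli1 at 0.52 ± 0.12, and 3 were lower. Fosl1, another AP-1 subunit, was at 0 in 12 libraries.

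Genes of activated keratinocytes, a list of 13 with 10 tested, had 7 higher and 1 lower at E17 than at E16. Il1a, an epidermal alarm cytokine, was at 3.16 ± 0.42 (adjusted p = 3.85e-06) and Sprr1a, an envelope protein, at 1.68 ± 0.10. In this and the next comparison Il1a is a gene near the floor, with a median of 0.433 CPM and no count in 1 library. It passed the filter only through a minority of libraries. Distally 4 were higher and 1 lower, with Il1a at 3.55 ± 0.46, Sprr1a at 1.66 ± 0.11 and Ereg, an EGF family ligand, at 1.62 ± 0.15. In the hindlimb none was higher and 4 were lower. Of 14 anchors that tie keratin filaments to desmosomes and hemidesmosomes, 10 were higher and 1 lower distally. Dsg2 and Dsp, desmosomal proteins, were at 0.86 ± 0.05 and 0.76 ± 0.07, and Pkp2 was lower at -1.31 ± 0.21. Between stages 4 anchors were higher at E17 and 6 lower.

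Other keratins of periderm and simple epithelia, which share the setting of Krt8, Krt18 and Krt19, were split. Of 8 genes, 5 were higher and 3 lower at E17, with Krt23 at 2.05 ± 0.15, Krt13 at 2.00 ± 0.10, Krt7 at 1.87 ± 0.10 and Krt4 at -1.10 ± 0.09 (highest adjusted p = 1.75e-08). Distally 6 were higher and 1 lower, with the tight junction gene Cldn6 at 1.74 ± 0.12, Krt23 at 1.38 ± 0.16 and Krt7 at 0.87 ± 0.11. Against the middle phalanx of digit 2, 6 of the 8 were higher in the distal phalanx, with Krt23 at 1.33 ± 0.22 and Cldn6 at 1.09 ± 0.17 and with Krt13 among them, and 2 were lower, among them Krt4 (-0.78 ± 0.14, adjusted p = 0.000385). In the hindlimb Cldn6 (1.20 ± 0.11) and Krt4 (0.43 ± 0.09) were higher and Krt13 (-0.80 ± 0.10) and Krt23 (-0.53 ± 0.14) were lower.

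Among tested genes that are not members, those most like each member were found by Pearson's correlation of log2 CPM over the 20 libraries, as a description. The 20 points share segments, stages and limbs, so they are not independent. Some members were closer to each other than to any gene named below. Krt6b was at r = 0.98 with Krt6a, with which it shares windows, and at 0.98 with Krt16, while Krt6a was at 0.96 with Krt16. Krt16 was closest to Blnk (r = 0.97), Dlx3 (0.97) and Map2 (0.97), Krt6b to Hspb8 (0.97), Krt6a to Duoxa1 (0.95) and Krt17 to Epcam (0.96), with the hard keratin Krt36 also among its 3 closest genes (0.94). Krt75 was closest to Prss22 (0.85), Krt8 to Depp1 (0.78), Krt18 to Gm1673 (0.81) and Krt19 to Mrpl34 (0.85). After segment, stage and limb were removed, Krt17 was closest to Hmox1 (0.91) and Tpm1 (0.90), Krt75 to Hid1 (0.94), Krt6b to Myh11 (0.88), Krt6a to Lta4h (0.89) and Krt16 to Arhgap10 (0.87). By that measure Krt19 was closest to ribosomal protein genes, Rps13 (0.93), Rps20 (0.91) and Rpl24 (0.91), Krt18 to Brk1 (0.93) and H3f3a (0.92), and Krt8 to Suds3 (0.88) and Rps20 (0.82).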

How the data were processed

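The authors deposited raw counts, as whole numbers per gene symbol, in a table for each stage. The submitters' processing notes name HISAT2 2.2.1, StringTie 2.1.7 and the GRCm39 build, while the counting step and the annotation are not given in the sources used here. Deposited tables of TMM-normalised values were not used. Tables were joined by symbol, with 56 genes matched through RefSeq synonyms, and joined genes held 99.0% to 99.5% of each library's counts. Genes with at least 1 CPM in at least 4 libraries were tested with edgeR 4.0.16 (R 4.3.3), by quasi-likelihood F tests with TMM factors, in 1 additive fit of segment, stage and limb (13 residual degrees of freedom). Products of stage or limb with distal position had fits of their own, while digit by position was a contrast of segments in the additive fit. All tests were two-sided, and p-values were Benjamini-Hochberg adjusted over all 14872 tested genes, with a threshold of 0.05. The common biological coefficient of variation was 18.5%. The test was tried on simulated data with 200 changed genes. CPM values were scaled by the TMM factors. DESeq2 1.42.0 was an alternative, beside other scalings, filters, single stages and a term for each matched set. Other alternatives were the 2 Krt6 copies as 1 gene and each library left out. A matched set was limb and segment for stage comparisons, stage and segment for limb comparisons, and stage and limb for the rest. The digit splits and the digit test were added after the data were seen.

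The members and gene lists were chosen with earlier results of these data known. Named genes are all 9 members, the genes most correlated with each, and from each list at most the 4 called genes with the largest change. Nearest genes were sought among tested genes that are not members, with a prior count of 2.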

Additional observations from a re-analysis of the deposited data

Results flagged for a closer look

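Both values singled out are of Krt20, at the lower end of what these depths can measure. In the distal phalanges of digit 2, the E17 hindlimb library had 0.0375 CPM while the other 3 libraries were at 0, so 1 library stood apart from the rest of its group. This is 4 counts, any count above 0 would have stood apart in the same way, and the value lies within the 0.0272 to 0.0426 CPM that a count of 0 allows. In the middle phalanges of digit 2, the E17 forelimb library had 0.405 CPM while the other 3 lay between 0 and 0.0513 CPM. In all 45 groups of 4 libraries, 9 members in 5 segments, were searched for such a gap. Chance gives it in about 1 of 20 groups of normally spread replicates. These groups mix stages and limbs, and Krt20 counts lie near 0, so that rate need not hold here.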

How the results depend on the processing

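Of 2412 values under the alternatives, 2299 were labelled unchanged. Among these, 2042 were fold changes that kept their direction and their side of the threshold. The other 257 were counts of members called, labelled unchanged also where they differed little, as with 6 against 7. Outside single stages the only call lost was that of Krt75 for distal against middle. There, fits without a single library called 6 to 7 members against 7. In E16 libraries alone, 0 members were called for middle against proximal in digit 2. In E17 libraries alone, 1 was called there, 0 between hindlimb and forelimb and 0 between the distal phalanges of digit 1 and digit 2. These fits hold 10 libraries instead of 20, and the share of all tested genes called in them is not given here. A loss particular to the members cannot be told apart from a general loss of calls. Between the distal phalanges, DESeq2 called 2 members, the fit with a term for each stage and limb set called 2, and fits without a single library called 1 to 2. For digit by position, DESeq2 called 1 and fits without a single library 0 to 1, where the call without the E17 forelimb distal phalanx of digit 2 was that of Krt8. The terms for matched sets added the calls of Krt19 between limbs and Krt18 between the distal phalanges and changed no other. For DESeq2, the matched-set fits and the fits without a single library, the share of all tested genes called is not given here either. No paired analysis by replicate number was possible because each group has 1 library.

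The 59 values that changed sign were of results that were not called. For distal against proximal, Krt8 was at 0.25 and Krt18 at 0.14 in digit 1 only, Krt19 at -0.092 in digit 2 only and at -0.013 in E16 libraries, and Krt18 at 0.030 in E17 libraries. For middle against proximal, E16 libraries gave -0.11 for Krt75 and -0.15 for Krt18, and E17 libraries gave 0.22 for Krt19. For distal against middle, E17 libraries gave 0.054 for Krt19. Between the distal phalanges, Krt6a was at -0.0035 with no filter, -0.17 in E16 libraries and -0.10 with the 2 Krt6 copies as 1 gene, and Krt16 at 0.013 in E17 libraries. Between limbs, Krt75 was at -0.93 in E17 libraries and -0.11 with the term for each stage and segment set. For limb by position, Krt8 was at 0.12 in E16 libraries and Krt6b at 0.064 in E17 libraries. For digit by position, Krt75 was at 0.26 in E16 libraries, and Krt6a at -0.071 in E17 libraries and -0.063 with the copies as 1 gene.

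Without each library in turn, Krt17 spanned -0.11 to 0.013 between stages. Krt75 spanned -0.28 to 0.19 between limbs, -0.37 to 1.09 for middle against proximal, -0.98 to 0.10 between the distal phalanges and -0.84 to 0.30 for digit by position. For middle against proximal, Krt18 spanned -0.012 to 0.38 and Krt19 -0.15 to 0.099. Krt19 spanned -0.17 to 0.019 for distal against middle. Krt6a spanned -0.15 to 0.12 between the distal phalanges and -0.10 to 0.16 for digit by position. Some calls appeared when 1 library was left out. Krt18 was called lower at E17 without the E17 forelimb digit 1 distal or the E16 forelimb digit 1 proximal library. Krt19 was called higher at E17 without the E17 or the E16 hindlimb digit 2 proximal library, and higher in the hindlimb without any of 5 libraries. Without the E17 forelimb digit 2 distal library, Krt8 was called lower distally than proximally and its difference between digits was called to depend on position, and Krt18 was called higher in the distal phalanx of digit 1 without any of 3 proximal libraries. The cause of these changes was not tested.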
